A study of Homo sapiens with 12 samples.

Results

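Metallothioneins are short, cysteine-rich proteins that bind zinc, copper and cadmium. The 9 members described here are the metallothionein genes MT1A, MT1E, MT1F, MT1G, MT1M, MT1X, MT2A and MT3, and MTF1, which encodes the zinc-sensing transcription factor of the family. They were chosen by gene symbol from a table of 56609 symbols. The samples were A375, an established human melanoma cell line, either wild type or carrying a CRISPR/Cas9 knockout of MAPKAPK2. MAPKAPK2 encodes MK2, a kinase activated by p38 that phosphorylates RNA-binding proteins. Each genotype was kept for 48 h with 500 nM JQ1, an inhibitor of the BET bromodomain proteins that bind acetylated histones, or with the solvent DMSO. Wild type with DMSO, wild type with JQ1, knockout with DMSO and knockout with JQ1 each had 3 libraries, 12 in all. Whether the knockout is a single clone or a pool of cells, and whether the libraries of a group came from separate cultures, is not stated, so the p-values measure the spread between these libraries, which may be technical. Groups follow the treatment field, which names DMSO for the samples whose titles say untreated.

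Zinc that enters a cell binds MTF1, which then moves to the nucleus and binds short sequences called metal response elements in front of metallothionein genes. The proteins made bind the metal and so buffer it, and the zinc exporter gene SLC30A1 is another well-known target of MTF1. Glucocorticoids also raise MT2A in many cells. The MT1 genes, MT2A and MT3 lie in a cluster on chromosome 16, MT3 being the member known mainly from brain.

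The libraries held 25316565 to 34594025 counts. MAPKAPK2 stood at 88.8, 87.9 and 92.1 counts per 1000000 (CPM, scaled with TMM factors) in wild type with DMSO and at 11.1, 13.2 and 13.0 CPM in knockout with DMSO. With JQ1 it stood at 119, 120 and 112 CPM in wild type and at 14.9, 12.6 and 15.7 CPM in knockout. The gene was lower in the knockout by a log2 fold change of -2.85 with DMSO (edgeR adjusted p = 3.6e-11) and -3.02 with JQ1 (edgeR adjusted p = 1.54e-11), so the genotype labels hold for all 12 libraries. This gene cannot check which libraries received JQ1, and the treatment labels were taken as given. The melanoma lineage genes SOX10 (389 to 687 CPM) and MCAM (195 to 371 CPM) were high in every library. The pigment cell genes were low, with PMEL at most 1.45 CPM, MLANA 1.02, DCT 0.456 and TYR 0.289. Of the epithelial genes looked at, CDH1 had 0 counts and EPCAM at most 2 in a library, and KRT8 stood at 14.6 to 17.9 CPM in all 12 libraries. Replicate 3 of knockout with JQ1 stood apart from the rest of its group. Its counts differed from those of its 2 replicates with chi-square values per degree of freedom of 23.8 and 25.1, against 3.21 to 7.05 for the other replicate pairs. Several results that rest on it are given without it as well, or as a range over left-out libraries.

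The MT1 and MT2 genes are near copies of each other, which matters for how reads are shared among them. The coding sequences of MT2A and MT1X, the 2 metallothioneins with enough counts to test, are shown from the GENCODE 29 annotation of GRCh38, with the bases at which they differ in capitals.
MT2A: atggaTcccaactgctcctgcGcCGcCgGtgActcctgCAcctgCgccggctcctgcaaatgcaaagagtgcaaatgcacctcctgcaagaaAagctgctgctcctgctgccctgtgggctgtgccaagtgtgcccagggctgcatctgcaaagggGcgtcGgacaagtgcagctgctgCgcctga
MT1X: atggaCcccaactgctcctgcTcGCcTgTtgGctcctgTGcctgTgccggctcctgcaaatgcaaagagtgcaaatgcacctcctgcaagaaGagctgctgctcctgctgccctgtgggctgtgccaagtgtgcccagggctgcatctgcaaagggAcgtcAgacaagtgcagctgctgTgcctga
Each is 186 bases long, and they differ at 14 bases with no gap, an identity of 92.5%. Over the 36 pairs of MT1 and MT2 coding sequences compared, identity ran from 88.7 to 95.2%. MT3, at 207 bases, shared 72.5 to 76.3% with the others. Over whole transcripts, the share of 31-base words found in no other gene was 92.8% for MT2A, 80.2% for MT1X, 84.4% for MT1E, 96.8% for MT1F and 76.2% for MT1M. So each of these genes has sequence by which a read could be told apart, and MT1X has less of it than MT2A.

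Sequence in front of the genes differed in its metal response elements. The 250 bases before the RefSeq transcription start are shown (GRCh38.p14), with every match to TGCGCNC or TGCACNC, the core of the metal response element, on either strand in capitals.
MT2A, chr16:56608334-56608583, plus strand: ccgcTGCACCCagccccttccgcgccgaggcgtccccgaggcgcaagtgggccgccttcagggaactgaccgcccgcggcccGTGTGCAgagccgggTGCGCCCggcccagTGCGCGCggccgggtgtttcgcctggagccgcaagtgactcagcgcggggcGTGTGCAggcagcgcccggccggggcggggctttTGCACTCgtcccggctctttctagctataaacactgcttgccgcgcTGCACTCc
MT1X, chr16:56682220-56682469, plus strand: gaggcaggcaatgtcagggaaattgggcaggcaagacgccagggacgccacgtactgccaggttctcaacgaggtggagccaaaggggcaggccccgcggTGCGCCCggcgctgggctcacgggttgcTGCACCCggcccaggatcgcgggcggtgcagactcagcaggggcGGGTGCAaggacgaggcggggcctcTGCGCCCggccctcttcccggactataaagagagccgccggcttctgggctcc
MTF1, chr1:37859593-37859842, minus strand: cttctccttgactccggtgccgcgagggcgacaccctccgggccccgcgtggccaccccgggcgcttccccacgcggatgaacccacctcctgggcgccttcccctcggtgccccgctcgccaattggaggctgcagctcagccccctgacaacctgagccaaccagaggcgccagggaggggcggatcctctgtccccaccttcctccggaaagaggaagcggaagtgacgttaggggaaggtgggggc
MT2A had 7 matches, 2 to TGCGCNC and 5 to TGCACNC, placed 246 to 8 bases before the start. MT1X had 4 matches, 2 to each form, placed 150 to 53 bases before the start. MTF1 had 0. Of the 34943 promoters of the same length in the RefSeq table, 24.8% held at least 1 match, 0.369% at least 4 and 0.0315% at least 7. Of the 9 members, 3 had an entry in that table. Outside the members, MT1H had 8 matches and MT1B had 3, and both genes had 0 counts in all 12 libraries. A match is a stretch of letters and no evidence of binding.

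Of the 9 members, 3 passed the low-count filter and were tested, namely MT2A, MT1X and MTF1. Another 4, MT1A, MT1E, MT1G and MT1M, had 0 counts in all 12 libraries, and 14228 of the 56609 symbols shared that. A count of 0 allows a level of up to 3 counts, or 0.0825 to 0.122 CPM depending on the library, for counting error only. MT1F had 18 counts spread over 10 libraries with at most 4 in any of them. MT3 had 1 count, in replicate 3 of wild type with JQ1. Further family symbols outside the members held little: the pseudogene MT1XP1 had 20 counts in all, MT1P1 9, MT1L 3 and MT1HL1 1, and MT1B, MT1H and MT4 had 0. So these cells carried MT2A and a small amount of MT1X, and the other metallothioneins were at or near the limit of detection in all 4 groups.

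**Figure D1:**
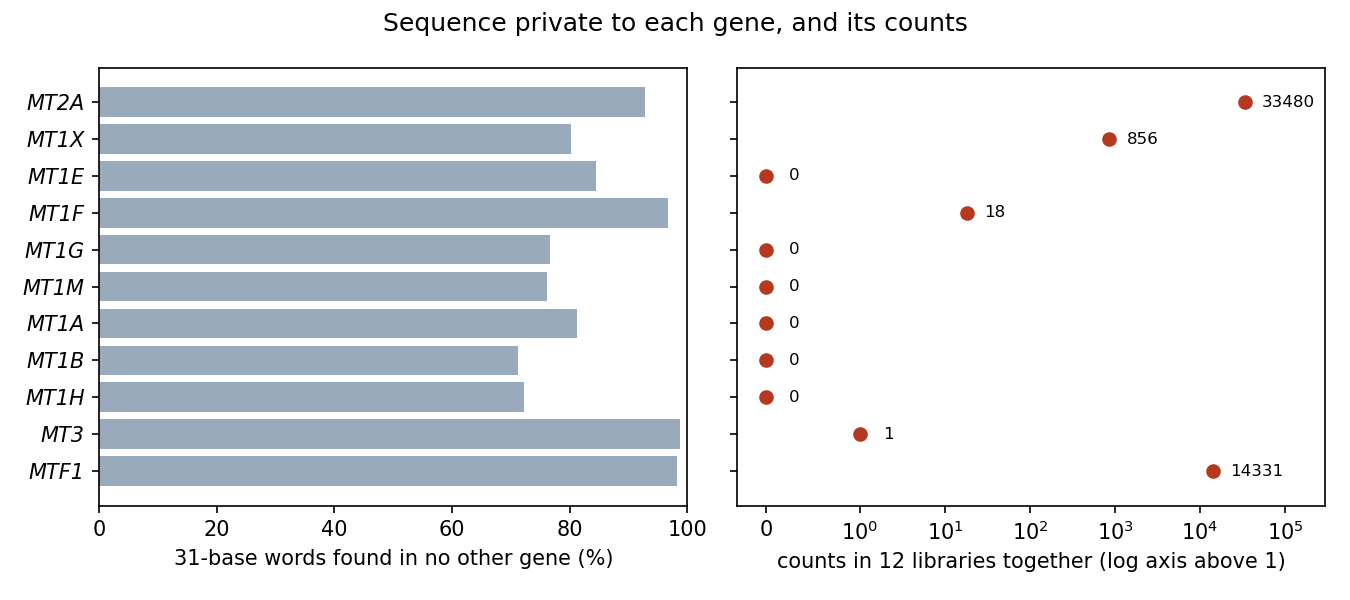
Left, the share of each gene's 31-base transcript words that occur in no other GENCODE 29 gene (bars, percent). Right, the rounded counts of the gene summed over 12 libraries (points, log axis above 1). MT2A (33480 counts), MTF1 (14331) and MT1X (856) stand far to the right, and genes with 0 counts still have over 70% of their words to themselves.

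MT2A, the main metallothionein of most human tissues (chr16:56608584-56609497, GRCh38.p14), held almost all of the family's counts. It ranked 2093 of 21698 tested genes by mean CPM, a rank that takes no account of transcript length. In wild type with DMSO its level was 100.8, 108 and 109 CPM, a mean of 106 ± 4.62 (SD, n = 3). In wild type with JQ1 it was 98.9, 90.3 and 85.5 CPM, a mean of 91.6 ± 6.82 (SD, n = 3). The 3 JQ1 libraries thus all lay below the 3 DMSO libraries. In knockout with DMSO it was 80.2, 99.0 and 81.4 CPM, a mean of 86.8 ± 10.5 (SD, n = 3). In knockout with JQ1 it was 78.1, 73.6 and 96.0 CPM, a mean of 82.5 ± 11.9 (SD, n = 3). In each knockout group 1 library stood well above the others, replicate 2 with DMSO and replicate 3 with JQ1, so the knockout groups overlapped. The order of the means was wild type with DMSO, wild type with JQ1, knockout with DMSO and knockout with JQ1. In that order the first and second groups did not overlap, and each later pair of neighbours did.

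MT1X (chr16:56682470-56684196), an MT1 gene found in many tissues, was rare and correspondingly noisy, with 53 to 100 counts per library. Its level in wild type with DMSO was 2.24, 2.51 and 2.75 CPM, a mean of 2.499 ± 0.257 (SD, n = 3). In wild type with JQ1 it was 2.67, 2.41 and 2.01 CPM, a mean of 2.36 ± 0.332 (SD, n = 3). These wild-type groups overlapped. In knockout with DMSO it was 1.70, 2.06 and 1.97 CPM, a mean of 1.91 ± 0.187 (SD, n = 3), and in knockout with JQ1 it was 2.89, 2.88 and 2.41 CPM, a mean of 2.73 ± 0.278 (SD, n = 3). All 3 JQ1 libraries of the knockout lay above all 3 of its DMSO libraries. The order of the means was knockout with JQ1, wild type with DMSO, wild type with JQ1 and knockout with DMSO; the first 3 overlapped one another, and the lowest group overlapped wild type with JQ1. The coefficient of variation within groups was 9.81 to 14.02%, and counting error alone gives 11.04 to 13.3%, so the spread was about that of counting.

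MTF1 (chr1:37809574-37859592), the metal-sensing regulator, varied least. It stood at 40.0, 38.3 and 38.0 CPM in wild type with DMSO, a mean of 38.8 ± 1.10 (SD, n = 3), and at 43.7, 46.9 and 41.9 CPM in wild type with JQ1, a mean of 44.2 ± 2.53 (SD, n = 3). In knockout with DMSO it stood at 36.7, 36.8 and 35.8 CPM, a mean of 36.4 ± 0.575 (SD, n = 3), and in knockout with JQ1 at 38.5, 39.6 and 38.9 CPM, a mean of 39.0 ± 0.601 (SD, n = 3). Wild type with JQ1 was the highest group and knockout with DMSO the lowest, and neither overlapped any other group. The middle groups, knockout with JQ1 and wild type with DMSO, overlapped.

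**Figure D2:**
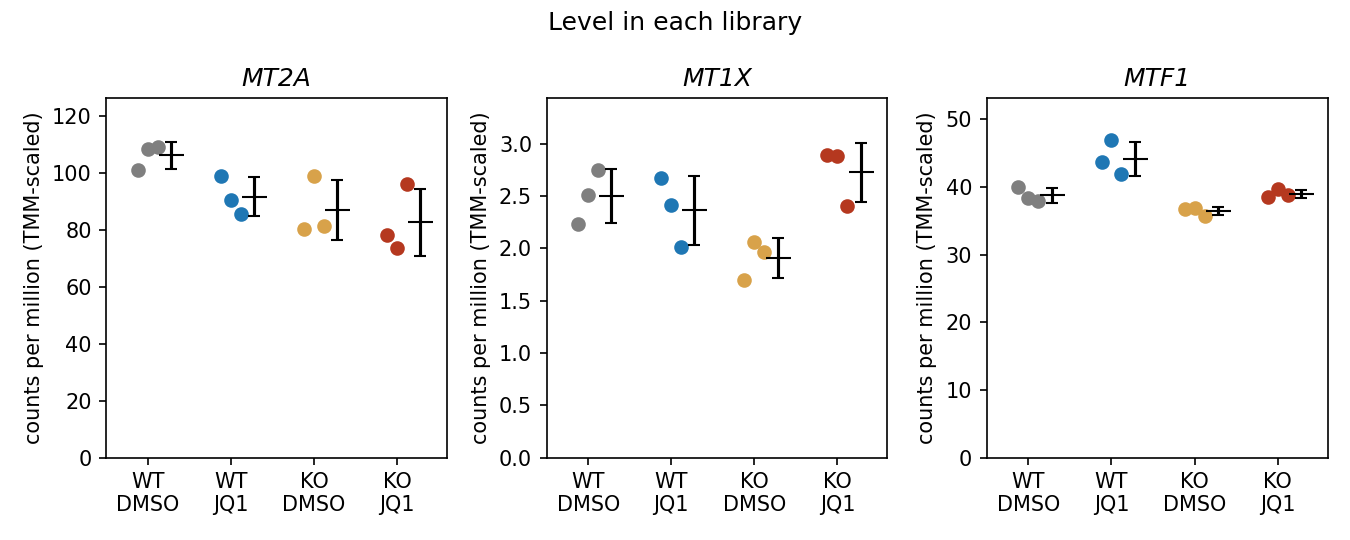
Level of MT2A, MT1X and MTF1 in each library, in CPM on axes that start at 0, for wild type (WT) and knockout (KO) with DMSO or JQ1. Points are libraries, and the bar beside them is the mean with its SD (n = 3); MT2A is highest in wild type with DMSO (106 CPM), MT1X in knockout with JQ1 (2.73 CPM) and MTF1 in wild type with JQ1 (44.2 CPM).

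CPM values do not compare genes of different length, so levels were also divided by the length of an annotated transcript, 786 bases for MT2A, 450 for MT1X and 7972 for MTF1. In wild type with DMSO this gave 135 CPM per kilobase for MT2A, 5.55 for MT1X and 4.86 for MTF1. On that scale MT2A was 24.3 times MT1X in wild type with DMSO, 22.2 times in wild type with JQ1, 26.1 times in knockout with DMSO and 17.3 times in knockout with JQ1. Using the other annotated lengths (581 bases for MT2A, 538 for MT1X) raised the first of these ratios to at most 39.3. By full annotated length, MT1X and MTF1 were thus close to each other, and MT2A was far above both in every group. Fragment size was not taken into account, so the closeness of MT1X and MTF1 holds on this scale only.

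Because reads of near copies can be assigned to the wrong gene, the MT1 and MT2 members were also summed. The sum was 109 ± 4.80 CPM in wild type with DMSO, 94.0 ± 7.13 in wild type with JQ1, 88.8 ± 10.7 in knockout with DMSO and 85.3 ± 11.6 in knockout with JQ1 (SD, n = 3 each). It followed MT2A, which made up 96.2 to 97.9% of it in every library. MT1X contributed 2.30% in wild type with DMSO, 2.51% in wild type with JQ1 and 2.16% in knockout with DMSO. In knockout with JQ1 it contributed 3.57, 3.77 and 2.44%, so 2 of these libraries lay above the 9 libraries of the other groups, whose highest share was 2.63%, and replicate 3 lay among them.

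With JQ1 in wild-type cells, MTF1 rose and the metallothioneins did not pass the test. MTF1 had a log2 fold change of 0.19 (SE 0.06, 95% interval 0.06 to 0.32, edgeR adjusted p = 0.0257), and it was higher in 3 of 3 libraries. MT2A had a log2 fold change of -0.21 (SE 0.10, 95% interval -0.43 to 0.00, edgeR adjusted p = 0.122), and MT1X of -0.08 (SE 0.16, 95% interval -0.42 to 0.26, edgeR adjusted p = 0.736). So 1 of 3 tested members was called, where 33.1% of all tested genes were called in this contrast, 16.9% of them higher and 16.2% lower. The groups of MT2A and MTF1 did not overlap, which held for 50.4% of tested genes. The MTF1 call was lost when libraries were scaled by their totals alone (log2 fold change 0.06, edgeR adjusted p = 0.488), a scaling that moves the median of all genes by -0.13. It was also lost with no low-count filter (0.101) and without wild type DMSO replicate 2 (0.0812) or 3 (0.0885) or JQ1 replicate 1 (0.0574) or 2 (0.128), these being the edgeR adjusted p-values. MT2A passed with totals alone (log2 fold change -0.34, edgeR adjusted p = 0.0108) and with only the groups compared (edgeR adjusted p = 0.012). It also passed without replicate 3 of knockout with JQ1, which enters only the shared estimate of spread (log2 fold change -0.21, edgeR adjusted p = 0.0376). In these settings, in that order, 7666 of 21698, 8740 of 20944 and 8455 of 22273 tested genes were called, beside 7187 of 21698 in the main fit.

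With JQ1 in knockout cells, MT1X rose 1.43-fold. Its log2 fold change was 0.51 (SE 0.16, 95% interval 0.16 to 0.86, edgeR adjusted p = 0.0252), and all 3 libraries were higher. MT2A differed by -0.07 (SE 0.10, 95% interval -0.29 to 0.14, edgeR adjusted p = 0.636), and MTF1 by 0.10 (SE 0.06, 95% interval -0.03 to 0.23, edgeR adjusted p = 0.242), both on the log2 scale. The 1 call among 3 tested members stands beside 34.4% of all tested genes called, 16.7% higher and 17.8% lower, and the 2 members whose groups did not overlap (MT1X and MTF1) beside 42.3%. Without replicate 3 of knockout with JQ1 the log2 fold change of MT1X was 0.60 (edgeR adjusted p = 0.0168) and that of MT2A -0.19 (edgeR adjusted p = 0.101). The MT1X call did not pass with library totals alone (edgeR adjusted p = 0.0763), with no low-count filter (0.0907), with only the groups compared (0.0615), in DESeq2 (adjusted p = 0.0652), without knockout DMSO replicate 1 (edgeR adjusted p = 0.0977) or without knockout JQ1 replicate 1 (0.0719) or 2 (0.0692).

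**Figure D3:**
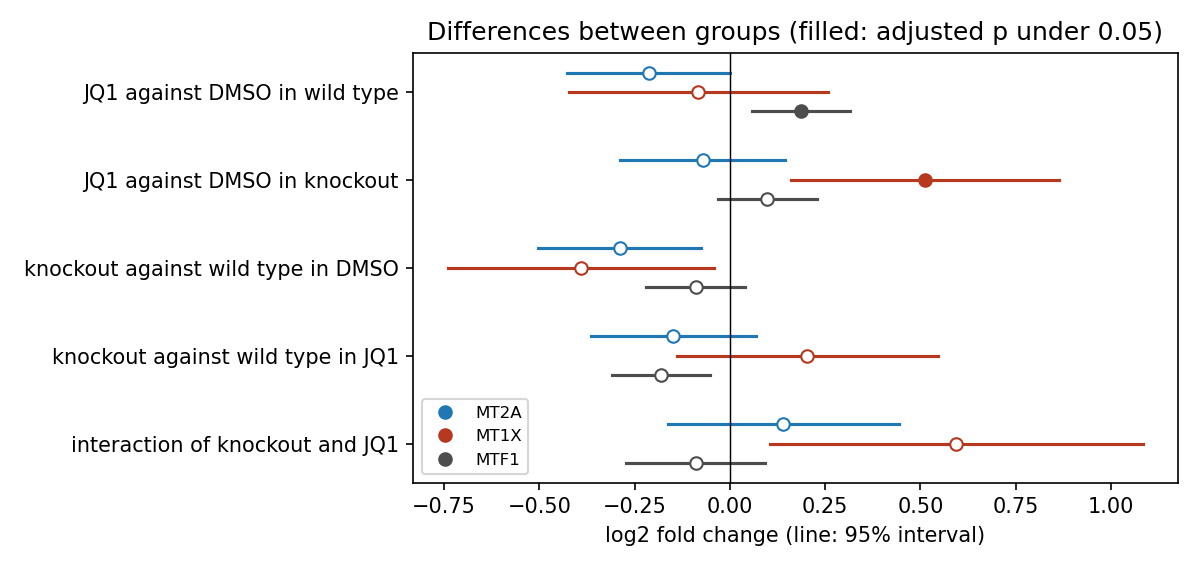
Log2 fold changes of MT2A, MT1X and MTF1 in the 4 comparisons of groups and in the interaction, with 95% intervals as lines. Filled points passed the edgeR adjusted p threshold of 0.05; these are MTF1 with JQ1 in wild type (0.19) and MT1X with JQ1 in knockout (0.51).

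Between genotypes with DMSO, no member passed the test, although all 3 had groups that did not overlap. MT2A was lower in the knockout by a log2 fold change of -0.29 (SE 0.10, 95% interval -0.50 to -0.07, edgeR adjusted p = 0.105). MT1X differed by -0.39 (SE 0.16, 95% interval -0.74 to -0.04, edgeR adjusted p = 0.19) and MTF1 by -0.09 (SE 0.06, edgeR adjusted p = 0.466). The count of 0 by edgeR, with 2 members at an unadjusted p under 0.05, was also 0 by DESeq2 and by limma, and 7.92% of all tested genes were called, 3.47% higher and 4.44% lower. Groups that did not overlap were found for 29.6% of tested genes. MT2A passed with library totals alone (edgeR adjusted p = 0.0407), with no low-count filter (0.0137) and with only the groups compared (0.0269). It also passed without replicate 3 of knockout with JQ1 (log2 fold change -0.29, edgeR adjusted p = 0.0194) and without replicate 2 of knockout with DMSO, the high library of its group (log2 fold change -0.38, edgeR adjusted p = 0.0386). In these settings, in that order, 1674 of 21698, 1959 of 42381, 2619 of 20684, 2650 of 22273 and 1273 of 22553 tested genes were called, beside 1718 of 21698 in the main fit.

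Between genotypes with JQ1, again 0 of 3 tested members passed by edgeR, DESeq2 or limma, with 1 at an unadjusted p under 0.05 by edgeR, where 8.57% of tested genes were called, 3.01% higher and 5.56% lower. MT2A had a log2 fold change of -0.15 (SE 0.10, 95% interval -0.36 to 0.07, edgeR adjusted p = 0.46), and MT1X of 0.20 (SE 0.16, 95% interval -0.14 to 0.55, edgeR adjusted p = 0.54). MTF1 was lower in all 3 knockout libraries, with a log2 fold change of -0.18 (SE 0.06, 95% interval -0.31 to -0.05, edgeR adjusted p = 0.0865; 0.0433 with library totals alone). With all libraries, MTF1 was the only tested member whose groups did not overlap, which held for 23.1% of tested genes. Without replicate 3 of knockout with JQ1, the groups of MT2A (78.1 and 73.6 CPM against 85.5 to 98.9 CPM) did not overlap either. Nor did those of MT1X (2.89 and 2.88 CPM against 2.01 to 2.67 CPM). Over left-out libraries the log2 fold change of MT2A ran from -0.27 to -0.07 (edgeR adjusted p from 0.0579 to 0.774), and no member passed.

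The JQ1 response of MT1X was larger in the knockout by 0.59 on the log2 scale (SE 0.23, 95% interval 0.11 to 1.08), but this difference of responses did not pass (edgeR adjusted p = 0.5, unadjusted p = 0.0206). The MT1X response is therefore not shown to differ between the genotypes. For MT2A the difference of responses was 0.14 (SE 0.14, 95% interval -0.16 to 0.44, edgeR adjusted p = 0.847) and for MTF1 -0.09 (SE 0.09, edgeR adjusted p = 0.835). Over left-out libraries these differences ran from 0.49 to 0.69 for MT1X, 0.02 to 0.23 for MT2A and -0.13 to -0.04 for MTF1. None of the 3 tested members passed by edgeR, DESeq2 or limma, 1 had an unadjusted p under 0.05 by edgeR, and 0.134% of all tested genes were called, 0.0323% with a larger and 0.101% with a smaller response in the knockout.

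Zinc exporters of the SLC30 family move zinc out of the cytosol. Of the 9 tested, 1 rose and 0 fell with JQ1 in either genotype, and 0 rose and 1 fell in the knockout with either treatment; in each case it was SLC30A1, the list's single call beside the 33.1% (wild type) and 34.4% (knockout) of all tested genes called with JQ1 and the 7.92% (DMSO) and 8.57% (JQ1) called between genotypes. It encodes the zinc exporter of the plasma membrane and is the known MTF1 target named above. SLC30A1 stood at 37.1, 34.3 and 36.6 CPM in wild type with DMSO and at 41.8, 46.6 and 47.7 CPM with JQ1. In the knockout it stood at 26.5, 26.8 and 23.8 CPM with DMSO and at 32.9, 32.7 and 30.1 CPM with JQ1. None of these groups overlapped. With JQ1 against DMSO that held for 50.4% of tested genes in wild type and 42.3% in knockout. Between genotypes it held for 29.6% with DMSO and 23.1% with JQ1. SLC30A1 rose with JQ1 by a log2 fold change of 0.33 in wild type (SE 0.07, edgeR adjusted p = 0.00254) and 0.31 in knockout (SE 0.08, edgeR adjusted p = 0.00473). Both calls were lost with library totals alone, where the list had 0 higher and 1 lower in wild type and 0 called in knockout. That scaling moved the median of all genes by -0.13 in wild type and -0.12 in knockout. SLC30A1 was lower in the knockout by a log2 fold change of -0.49 with DMSO (SE 0.07, edgeR adjusted p = 0.000724) and -0.51 with JQ1 (SE 0.07, edgeR adjusted p = 0.000416), calls that held under all 20 settings tried. Without replicate 3 of knockout with JQ1, 2 exporters passed with JQ1 in each genotype and 2 in the knockout with DMSO. Of all 22273 genes tested in that setting, 8455 passed with JQ1 in wild type, 7481 with JQ1 in knockout and 2650 in the knockout with DMSO. SLC30A1 and MAPKAPK2 both lie on chromosome 1, at 211571568 to 211579161 and at 206684905 to 206734281 (GRCh38.p14). The list's median log2 fold change in the knockout with DMSO was -0.10, beside 0.00 over all tested genes.

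Zinc importers of the SLC39 family bring zinc into the cytosol. With JQ1 in wild type 6 of 10 tested rose, 1 fell and 3 did not pass, beside 16.9% of all tested genes higher and 16.2% lower. The median log2 fold change of the list was 0.28 beside -0.03 over all tested genes. In knockout 6 rose, 2 fell and 2 did not pass, beside 16.7% higher and 17.8% lower, with a median of 0.34 beside 0.00. With library totals alone 5 rose and 3 fell in wild type (median 0.15), and 5 rose and 2 fell in knockout (median 0.22). Without replicate 3 of knockout with JQ1, 11 importers were tested, of which 6 rose and 4 fell in wild type and 6 rose and 2 fell in knockout. Of all 22273 genes tested in that setting, 4359 rose and 4096 fell in wild type, and 3614 rose and 3867 fell in knockout. SLC39A14, an importer of zinc and iron, rose by log2 fold changes of 0.53 in wild type (edgeR adjusted p = 2.31e-05) and 0.60 in knockout (edgeR adjusted p = 6.54e-06). Its libraries ran from 62.5 to 68.8 CPM in wild type with DMSO and from 94.1 to 98.4 CPM with JQ1. SLC39A13, of the Golgi, rose by 0.61 and 0.63, SLC39A11 by 0.57 and 0.62, SLC39A3 by 0.69 and 0.64, and SLC39A7, of the endoplasmic reticulum, by 0.31 and 0.40 (log2 fold changes in wild type and knockout). SLC39A10, of the plasma membrane, went the other way, falling by 0.57 in wild type (edgeR adjusted p = 0.00113) and by 0.42 in knockout (edgeR adjusted p = 0.0091). Its libraries stood at 81.4 to 90.3 CPM in wild type with DMSO and 55.2 to 58.2 CPM with JQ1, and at 73.1 to 82.5 CPM in knockout with DMSO and 44.3 to 65.8 CPM with JQ1. SLC39A8 was also called lower in knockout (log2 fold change -0.25, edgeR adjusted p = 0.0279). In wild type it did not pass (-0.18, edgeR adjusted p = 0.104). SLC39A6 had log2 fold changes of -0.13 in wild type and -0.06 in knockout and passed in neither. In the knockout with DMSO 0 of the 10 importers passed by edgeR, 2 had an unadjusted p under 0.05, and DESeq2 called 1 and limma 0. With JQ1, SLC39A7 alone passed (log2 fold change 0.22, edgeR adjusted p = 0.0489), a call found in 5 of 20 settings. Over all tested genes, edgeR called 7.92% between genotypes with DMSO and 8.57% with JQ1.

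Metallothioneins also buffer copper, and genes of copper handling were called with JQ1 about as often as all genes in wild type. There 3 of 12 tested rose, 1 fell and 8 did not pass, beside 33.1% of all tested genes called, 16.9% higher and 16.2% lower. The list's median log2 fold change was 0.07, beside -0.03 over all tested genes. With library totals alone it was -0.06 (3 higher, 2 lower), beside -0.16 over all tested genes. In knockout 5 rose, 1 fell and 6 did not pass, beside 34.4% of all tested genes called, 16.7% higher and 17.8% lower. The list's median there was 0.25, beside 0.00 over all tested genes. Without replicate 3 of knockout with JQ1 it was 0.13 (5 higher, 1 lower), beside -0.02 over all tested genes. With library totals alone it was 0.13 (4 higher, 2 lower), beside -0.12. ATOX1, the chaperone that hands copper to the export pumps, stood at 60.9 to 62.0 CPM in wild type with DMSO and 107 to 112 CPM with JQ1, and at 61.9 to 70.8 CPM in knockout with DMSO and 129 to 139 CPM with JQ1. Its log2 fold change was 0.83 in wild type (edgeR adjusted p = 9.37e-08) and 1.00 in knockout (edgeR adjusted p = 1.12e-08). SOD1, a copper and zinc enzyme, rose by log2 fold changes of 0.41 and 0.45, and SCO2, which delivers copper to cytochrome c oxidase, by 0.57 and 0.45, while its relative SCO1 fell by 0.36 and by 0.23 on that scale. In the knockout with DMSO 0 of 12 copper genes passed by edgeR, DESeq2 or limma, with 1 at an unadjusted p under 0.05 by edgeR, beside 7.92% of all tested genes called by edgeR. With JQ1 4 of 12 were higher in the knockout and 0 lower, beside 3.01% of all tested genes higher and 5.56% lower. They were SLC31A1, the copper importer (log2 fold change 0.32, edgeR adjusted p = 0.0054), ATOX1 (0.28, edgeR adjusted p = 0.00611), SCO1 (0.21, edgeR adjusted p = 0.0483) and COX17 (0.27, edgeR adjusted p = 0.049). SCO1 and COX17 passed in only 5 and 7 of 20 settings, and without replicate 3 of knockout with JQ1 the list's count was 2. No copper or zinc gene differed in its JQ1 response between genotypes by edgeR, DESeq2 or limma, and 2 of the copper genes and 0 of the zinc genes had an unadjusted p under 0.05 by edgeR.

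**Figure D4:**
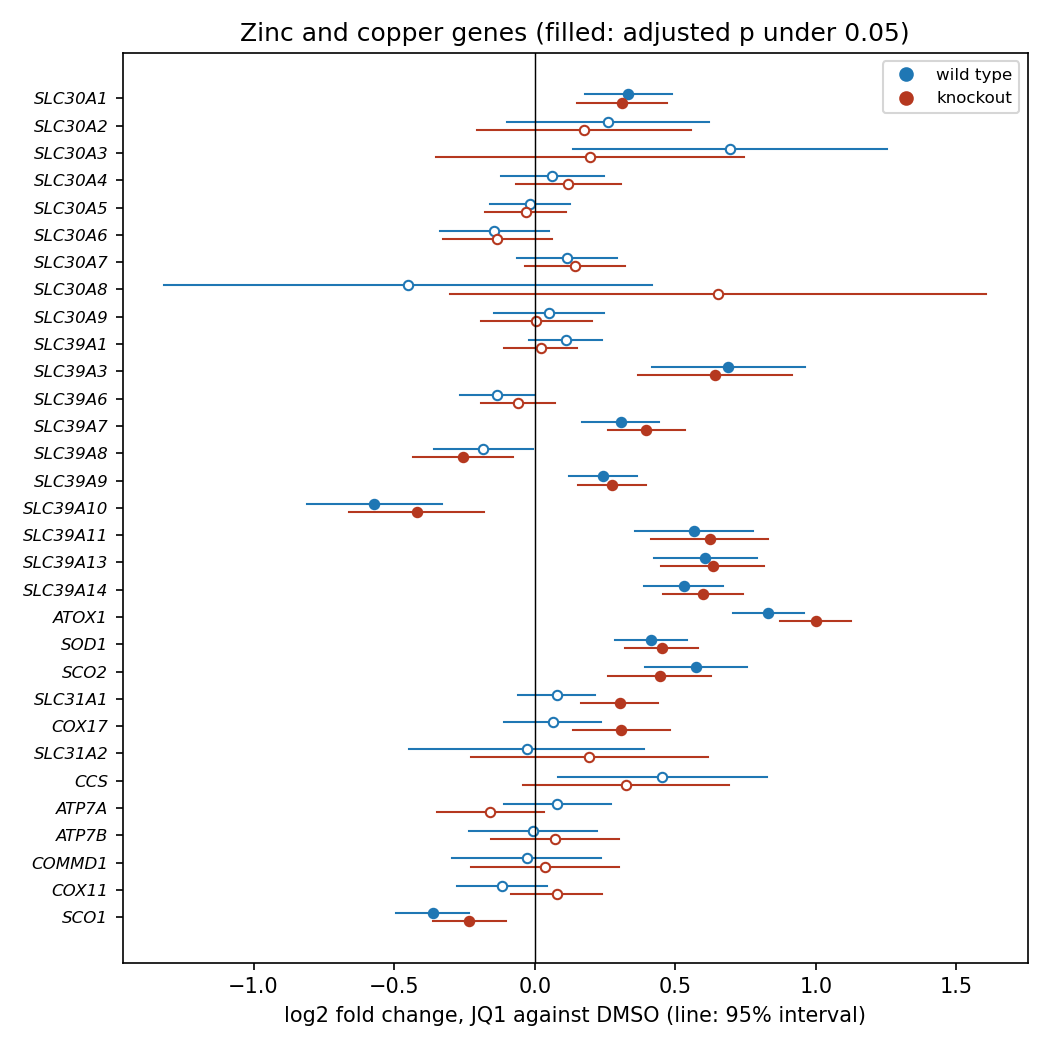
Log2 fold change with JQ1 of the tested zinc transporter and copper genes in wild type and knockout, with 95% intervals as lines and filled points for an edgeR adjusted p under 0.05. Most importers from SLC39A3 to SLC39A14 and ATOX1 (0.83 and 1.00) lie to the right of 0. The importers SLC39A10 (-0.57 and -0.42), SLC39A8 (-0.18 and -0.25) and SLC39A6 (-0.13 and -0.06) lie to the left.

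The genes whose level across the 12 libraries was most like that of MT2A were sought by Pearson's r of log2 CPM among the 11249 genes whose mean reached 5 CPM. They were MSC (r = 0.938), a transcription factor, CPT1A (0.928), an enzyme of fatty acid import into mitochondria, PPP1R15A (0.908), a stress-induced phosphatase subunit, TIMP2 (0.907), an inhibitor of metalloproteinases, and PTCH1 (0.901), the Hedgehog receptor. Leaving out any 1 library kept r between 0.872 and 0.957 for these 5. They had been picked for a high r over all 12 libraries and were not picked anew, so this range is no separate check. The points share groups, libraries and depth, and the values are a description of the 12 libraries. Within the members, r was 0.13 between MT2A and MT1X, 0.08 between MT2A and MTF1 and 0.31 between MT1X and MTF1. MT2A and MTF1 thus did not follow each other closely. The spread of MT1X within groups was about that of counting, which limits r, so its values cannot show whether it followed the others.

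**Figure D5:**
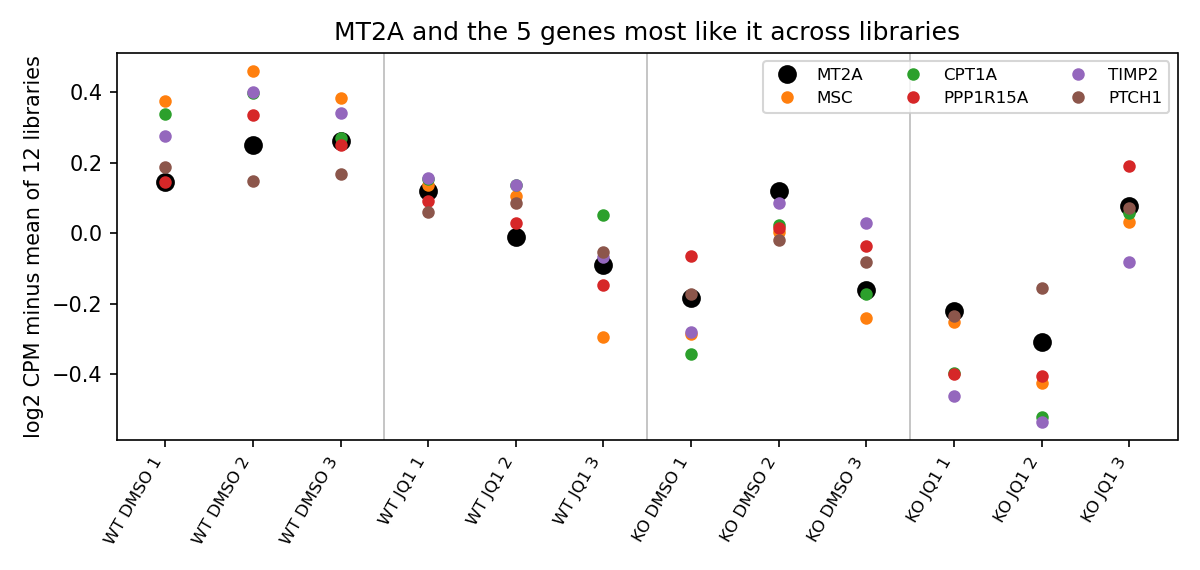
Level of MT2A (large black points) and of the 5 genes most like it in each of the 12 libraries, as log2 CPM minus the gene's mean over the libraries. The genes are high in the 3 libraries of wild type with DMSO and low in replicates 1 and 2 of knockout with JQ1, and replicate 3 of that group lies above its replicates for all 6 genes.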

How the data were processed

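RNA of 12 libraries was measured by sequencing of rRNA-depleted total RNA with a directional kit, per the labels' protocols. The submitters' processing notes name Trim Galore, cutadapt, FastQC, MultiQC, kallisto, DESeq2 and the build GRCh38.p10; how transcripts were summed to genes is not given in the sources used here. The authors deposited estimated counts per gene symbol, which were rounded here although whole counts had been planned for, and a normalized signal for 32828 genes, which the authors deposited as well and which served only for 2 alternatives, its factors as offsets in edgeR and limma on log2(signal + 1). Low counts were filtered with filterByExpr, leaving 21698 genes, and 4 groups were fitted together with TMM scaling and edgeR's quasi-likelihood test (edgeR 4.0.16, limma 3.58.1, DESeq2 1.42.0, R 4.3.3), with Benjamini-Hochberg adjustment over all tested genes and a threshold of 0.05. Each SE was obtained from a log2 fold change and the square root of its F. The fit was tested on simulated data. Alternatives were other scalings, no filter, a replicate block, fewer groups, DESeq2, limma and leaving out each library. All members were named, as were MAPKAPK2, SLC30A1, SLC39A10, the genes of each list with up to 4 smallest adjusted p-values per contrast and the 5 genes most like MT2A; the other genes named were chosen after their values were seen. The members and lists were chosen with earlier results of these data known. RefSeq promoters and positions are of GRCh38.p14, and coding sequences of GENCODE 29. One gene that the rule names is not reported here.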

Additional observations from a re-analysis of the deposited data

How the results depend on the processing

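Directions and calls were recomputed under 20 settings per comparison, 19 for the interaction. The number of members called with JQ1 in wild type, 1, became 0 with no low-count filter and 2 with only the groups compared, and 0 to 2 when 1 library was left out. Over all tested genes, 7187 of 21698 were called in the main fit, 7335 of 42381 with no filter and 8740 of 20944 with only the groups compared. Leaving out 1 library gave from 5647 of 22263 to 8455 of 22273. With JQ1 in knockout, 1 became 0 with library totals alone, with no filter, with only the groups compared and in DESeq2, and 0 to 1 with 1 library left out. The calls over all tested genes were 7472 of 21698 in the main fit. In those settings, in that order, they were 7659 of 21698, 7568 of 42381, 5715 of 19828 and 7081 of 24299. For the knockout with DMSO, 0 became 1 with library totals alone, with no filter and with only the groups compared (MT2A in each). With 1 library left out it was 0 to 1. Calls over all tested genes there were 1718 of 21698 in the main fit, and from 1092 of 22597 to 2650 of 22273 with 1 library left out. Between genotypes with JQ1, 0 became 1 with library totals alone (MTF1, log2 fold change -0.21, edgeR adjusted p = 0.0433), where 1855 of 21698 tested genes were called. The interaction gave 0 under all 19. Signs turned for MT1X with JQ1 in wild type without replicate 3 of that group (0.027, range -0.18 to 0.027 over left-out libraries), for MT2A with JQ1 in knockout without replicate 2 with DMSO (0.027) or with JQ1 (0.0073), a range of -0.19 to 0.027, and for MTF1 with JQ1 in knockout with library totals alone (-0.017); none of these had passed. Same-numbered libraries did not visibly deviate together (18 pairs, r from -0.11 to 0.08, beside -0.14 to 0.11 for different-numbered pairs). Deviations within groups of 3 libraries cannot settle whether a number marks a shared culture or day, which the labels do not say. With a replicate block, member counts stayed at 1, 1, 0, 0 and 0, and MT1X with JQ1 in knockout had a log2 fold change of 0.51 (edgeR adjusted p = 0.0396). Depth limits MT1X, at 53 to 100 counts per library.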

Other observations

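Genes listed for the glucocorticoid response, the receptor gene NR3C1 among them, did not move one way with JQ1. In wild type 1 of 8 tested rose, which was NR3C1 itself, 2 fell and 5 did not pass, beside 33.1% of all tested genes called. Without replicate 3 of knockout with JQ1, 4 rose and 2 fell there, beside 4359 higher and 4096 lower of all 22273 genes tested. With library totals alone 0 rose and 2 fell, beside 2298 higher and 5368 lower of 21698. KLF9, a transcription factor, fell by 0.33 (edgeR adjusted p = 6.2e-05) and CEBPD, another, by 0.46 (edgeR adjusted p = 0.0205), and NR3C1, the glucocorticoid receptor, rose by 0.24 (edgeR adjusted p = 0.00997), all on the log2 scale. In knockout 1 rose, 2 fell and 5 did not pass, beside 34.4% of all tested genes called: DUSP1, a phosphatase of MAP kinases, rose by 0.37 (edgeR adjusted p = 0.0127), CEBPD fell by 0.69 (edgeR adjusted p = 0.00128) and KLF9 fell by 0.17 (edgeR adjusted p = 0.009). KLF9 was lower in the knockout with DMSO (log2 fold change -0.19, edgeR adjusted p = 0.0149). NR3C1 was lower in the knockout with JQ1 (log2 fold change -0.25, edgeR adjusted p = 0.0273). These 2 calls were found in 13 and 12 of 20 settings. With 1 library left out, the number called with JQ1 ran from 1 to 6 in wild type and 2 to 4 in knockout.

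Genes beside the metallothionein cluster on chromosome 16 did not move together either. With JQ1 in wild type 2 of 6 tested rose, 1 fell and 3 did not pass, beside 33.1% of all tested genes called. With library totals alone 1 rose and 2 fell in each genotype. Of all 21698 tested genes, 2298 were then higher and 5368 lower in wild type, and 2409 higher and 5250 lower in knockout. NUP93, a nuclear pore protein, rose in wild type (0.20, edgeR adjusted p = 0.0113), and NUDT21, a factor of mRNA cleavage, fell by 0.23 there (edgeR adjusted p = 0.0427), a call found in 5 of 20 settings. In knockout 2 rose, 1 fell and 3 did not pass, beside 34.4% called over all tested genes. HERPUD1, a stress gene of the endoplasmic reticulum, rose there (0.34, edgeR adjusted p = 0.00645), and BBS2, a gene of cilia, fell by 0.21 (edgeR adjusted p = 0.0209). In the knockout with DMSO, HERPUD1 was lower (log2 fold change -0.37, edgeR adjusted p = 0.0142) and NUP93 higher (0.20, edgeR adjusted p = 0.0373, found in 10 of 20 settings). With JQ1 0 of 6 passed by edgeR, with 1 at an unadjusted p under 0.05, and DESeq2 called 1 and limma 0. Over all tested genes, edgeR called 7.92% between genotypes with DMSO and 8.57% with JQ1. With 1 library left out, the number called with JQ1 ran from 1 to 3 in wild type and 2 to 4 in knockout, and in the knockout with DMSO from 0 to 3.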
